A study of Mus musculus with 40 samples.

Results

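The cytochrome P450 genes of the CYP2 and CYP3 families were examined in the kidneys of male mice dosed with TCDD (2,3,7,8-tetrachlorodibenzo-p-dioxin), a long-lived pollutant that binds and activates the aryl hydrocarbon receptor. Members were all protein-coding mouse genes whose symbol places them in family 2 or 3, and 57 of the 55359 gene identifiers in the count files met this rule, 48 in CYP2 and 9 in CYP3. They fall into 14 subfamilies, the largest being Cyp2c with 15 genes, Cyp3a with 9, and Cyp2d and Cyp2j with 8 each. A further 23 pseudogenes with such symbols were left out.

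Right kidneys of 40 male C57BL/6 mice (C57BL/6NCrl in the design text) were profiled by bulk RNA sequencing in 8 groups of 5. Controls received sesame oil by gavage, and the other groups received TCDD in sesame oil at 0.03, 0.1, 0.3, 1, 3, 10 or 30 µg/kg. Mice were 30 days old at the first of 7 gavages, which were 4 days apart, and 58 days old at the end of the 28 days. No allele, transgene or second agent is given for any group, and all mice were males that reached young adulthood during dosing. The labels do not say which mice shared a cage or litter, so the p-values measure the spread between these 40 kidneys.

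Cytochrome P450 enzymes of these families sit in the endoplasmic reticulum and insert an oxygen atom into lipids, steroids, drugs and other foreign compounds, with electrons passed on by the reductase encoded by Por. Most of them are best known from liver, where nuclear receptors induce Cyp2b and Cyp3a genes. In the kidney they are found mainly in the proximal tubule, where Cyp2j and some Cyp2c enzymes turn arachidonic acid into epoxides that act on vessel tone and salt transport. Several mouse members differ between the sexes and respond to androgen. The classical dioxin-induced P450 genes belong to the CYP1 family, outside the group described here, and Cyp2s1 is a CYP2 gene known as a target of the same receptor.

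Gene counts summed to between 15278423 and 25575317 per library. Levels are given as CPM, counts relative to TMM-scaled library sizes, and levels of different genes are ranked as CPM per kilobase of exon. Ratios between a pair of genes, in plain CPM, serve only to compare libraries. Cyp1a1, read as a check of exposure, lay between 1.15 and 4.00 CPM in the vehicle libraries and between 2074 and 2996 CPM at 30 µg/kg. Vehicle replicates 1 and 2 stood apart from the other vehicle libraries. Their summed CPM of 9 markers of the first proximal tubule segments (S1-S2) was 18137 and 18550, against 13798 to 14265 in the other vehicle libraries. For 5 markers of the last segment (S3) it was 1590 and 1753, against 2712 to 3091. The adrenal marker sum was at 799 CPM in replicate 1 of 0.03 µg/kg and 836 CPM in replicate 4 of 1 µg/kg, doses at which no member was called. It was at 43.9 CPM in replicate 2 of 3 µg/kg, where 1 member was, and at 3.85 to 5.83 CPM in vehicle. Of 13 liver markers, the highest value in any library ran from 0.407 CPM for Tat to 253 CPM for Apob, with 11.2 CPM for Alb.

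In vehicle kidneys the transcripts of these families came mostly from few genes. Members together held a median of 0.424% of gene counts (range 0.411 to 0.442% over the 5 libraries), and the 5 most counted members held 82.7% of that. Per kilobase, Cyp2e1, which oxidises ethanol, acetone and other small molecules, stood at 596 ± 63.3 CPM per kilobase (SD, n = 5). Cyp2j5, an arachidonic acid epoxygenase of kidney and liver, stood at 583 ± 20.5 CPM per kilobase, and these first 2 levels did not differ beyond their spread. Cyp2d26 followed at 169 ± 44.7 CPM per kilobase, then Cyp2a4, a steroid 15-alpha-hydroxylase, at 123 ± 60.8 and Cyp2j11 at 107 ± 8.39, and neighbours among these 3 overlapped within their SD. Cyp2j13 stood at 85.3 ± 12.5 CPM per kilobase. Cyp2d9, a testosterone 16-alpha-hydroxylase, and Cyp2a5, the coumarin 7-hydroxylase, were almost level at 55.5 ± 17.9 and 55.2 ± 14.7 CPM per kilobase. Cyp2d12 stood at 29.5 ± 6.21 CPM per kilobase, followed by Cyp2c23, an arachidonic acid epoxygenase, at 18.2 ± 3.83 and Cyp2j6 at 11.9 ± 1.14.

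**Figure D1:**
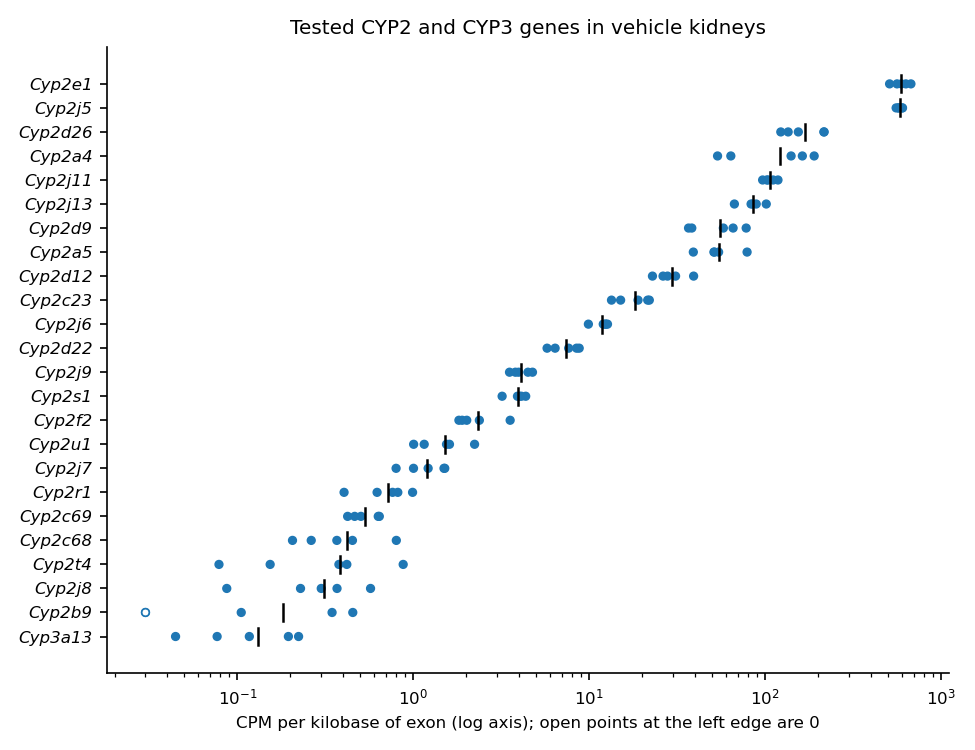
Level of the 24 tested members in the 5 vehicle libraries, in CPM per kilobase of exon on a log axis. Each point is a library, the bar is the mean, and open points at the left edge are libraries with no count. Cyp2e1 and Cyp2j5 are highest, with means of 596 and 583, and Cyp3a13 is lowest at a mean of 0.131.

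Many members had few or no reads. Of the 57 genes, 24 passed the filter on low counts and could be tested, and 33 did not. No read was counted in any of the 40 libraries for 9 of them, Cyp2a22, Cyp2b13, Cyp2c37, Cyp2c39, Cyp2c66, Cyp2w1, Cyp3a16, Cyp3a41a and Cyp3a41b. Another 9 never exceeded 3 counts in a library, among them Cyp3a25. The remaining 15 exceeded 3 counts in at least 1 library. Cyp3a11, the main drug-metabolising CYP3A enzyme of mouse liver, had 0, 3, 0, 1 and 1 counts in the vehicle libraries and at most 14 in any library, reached in replicate 5 of 10 µg/kg. Cyp3a13 was the only CYP3 gene tested, at 0.388 ± 0.225 CPM (SD, n = 5) in vehicle.

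At the 4 lowest doses no member was called. Each dose was set against vehicle with the quasi-likelihood F-test of edgeR over all 17345 genes tested, with Benjamini-Hochberg adjustment and a call at an adjusted p under 0.05, and all dose comparisons share the 5 vehicle libraries. At 0.03 and 0.1 µg/kg, 0 of 24 members were called, as were 0% of all genes, and 1 member at each dose had an unadjusted p under 0.05, against 5.67 and 5.53% of all genes. At 0.3 µg/kg, 0 members were called against 0.00577% of all genes, with 2 members at an unadjusted p under 0.05 (5.23% of all genes). At 1 µg/kg, 0 members were called against 0.513% of all genes, with 1 at an unadjusted p under 0.05 (7.1% of all genes). At 10 µg/kg, 0 members were called against 4.82% of all genes, with 1 member (Cyp2e1) at an unadjusted p under 0.05 against 15.7% of all genes. DESeq2 also called 0 members at each of these doses. The fit to the 10 libraries of 10 µg/kg and vehicle alone called 2 members lower, Cyp2e1 and Cyp2j13.

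Cyp2f2 was the single member called at 3 µg/kg, where 1.09% of all genes were, 0.0634% lower. At that dose 6 of 24 members had an unadjusted p under 0.05, against 8.95% of all genes. Cyp2f2 is the enzyme that activates naphthalene in mouse lung. Its vehicle libraries held 7.20, 4.81, 3.84, 3.68 and 4.08 CPM, and those of 3 µg/kg held 2.06, 2.92, 3.39, 2.28 and 1.45 CPM. All 5 treated libraries lay below all vehicle libraries, and the log2 fold change was -0.97 ± 0.26 (SE, edgeR adjusted p = 0.0420). At 10 and 30 µg/kg the log2 fold changes were -0.31 ± 0.25 and 0.02 ± 0.25, and neither was called. At 0.03, 0.1, 0.3 and 1 µg/kg they were -0.34, -0.71, -0.53 and -0.42, also not called. All 5 libraries of 0.1 µg/kg and 4 of those of 0.3 µg/kg lay below all vehicle libraries. Leaving out any 1 of 6 libraries ended the call, namely vehicle replicates 1 and 2 and replicates 1, 2, 4 and 5 of 3 µg/kg. An antisense gene overlaps 13.5% of its exonic bases. Reads that overlap both genes are ambiguous in the unstranded column, and ambiguous reads were not used. The 2 stranded columns gave log2 fold changes of -0.40 (edgeR adjusted p = 0.553) and -0.53 (adjusted p = 0.223), so the call was lost in both and the value was at most 0.53 in size.

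At 30 µg/kg, 8 of the 24 tested members were called, or 33.3%, against 15.9% of all genes. Lower were Cyp2j13, Cyp2j5 and Cyp2j11 of the epoxygenase subfamily, Cyp2e1, Cyp2a4 and Cyp2d9, 6 members against 7.55% of all genes called lower. Higher were Cyp2d22 and Cyp2s1, 2 members against 8.39% of all genes called higher. An unadjusted p under 0.05 was found for 9 of 24 members, against 27.6% of all genes. The median log2 fold change of the 24 members was -0.14 and that of all genes 0.01. The median size of the change, without its sign, was 0.415 for members and 0.20 for all genes. The 24 are the members that passed a filter on low counts, not all 57. Together, members held a median of 0.311% of gene counts at 30 µg/kg (range 0.264 to 0.370%), below every vehicle library, and 0.375% (0.339 to 0.411%) at 10 µg/kg. When only the 10 libraries of vehicle and 30 µg/kg entered the fit, 2 members were called, Cyp2e1 and Cyp2s1. That fit gave the other 6 the same directions with edgeR adjusted p-values from 0.0586 for Cyp2j11 to 0.279 for Cyp2d9. Leaving out 1 library of either group gave between 7 and 10 calls.

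**Figure D2:**
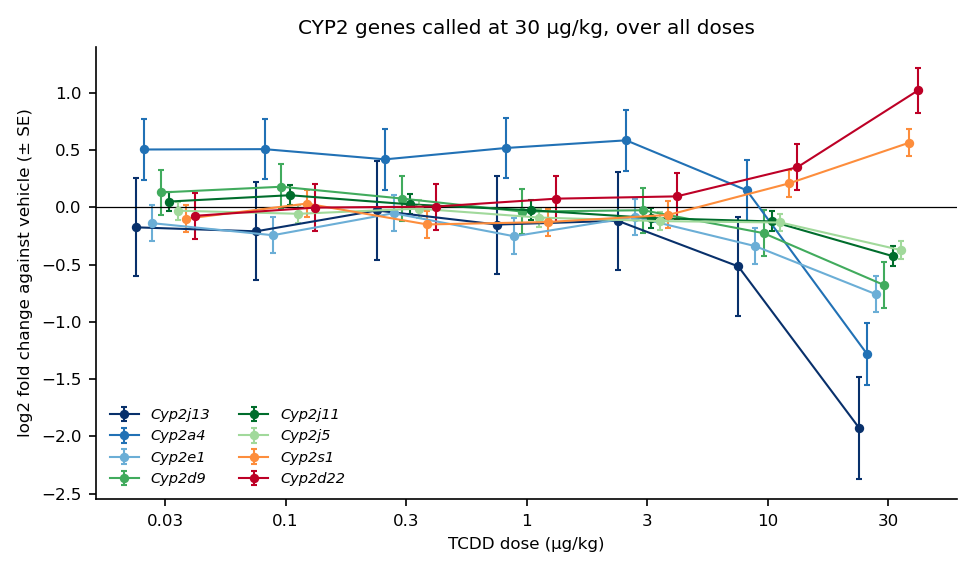
Fold change of the 8 members called at 30 µg/kg, over the 7 TCDD doses. The vertical axis is the log2 fold change against vehicle from edgeR with its SE, and the horizontal axis is the dose with equal spacing between groups. At doses through 10 µg/kg the values lie between -0.52 and 0.58, and they reach from -1.92 for Cyp2j13 to 1.02 for Cyp2d22 at 30 µg/kg.

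Cyp2j13 (ENSMUSG00000028571), a kidney member of the Cyp2j epoxygenase cluster on chromosome 4, had the lowest fold change. Its vehicle libraries held 418, 400, 391, 477 and 314 CPM. At 10 µg/kg the values were 340, 267, 317, 214 and 263 CPM, with 3 libraries below all vehicle libraries. At 30 µg/kg they were 228, 242, 16.3, 16.1 and 26.6 CPM. All 5 lay below every vehicle library, in 2 levels, with replicates 1 and 2 nearest to vehicle and replicates 3, 4 and 5 far below them. The log2 fold change was -1.92 ± 0.45 (SE, edgeR adjusted p = 0.00236) against vehicle and -1.41 ± 0.44 (adjusted p = 0.0809) against 10 µg/kg. Single-library omissions moved the first value between -2.48 and -1.65, with an adjusted p of at most 0.00831. At the 5 lower doses up to 3 µg/kg the log2 fold change stayed between -0.21 and -0.03.

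The promoter of Cyp2j13 is shown because it is the 1 promoter, among those of the called members listed in RefSeq, that holds the 5-base core of the aryl hydrocarbon receptor's response element, GCGTG on either strand (CACGC when read on the other strand). The 250 bases before the more upstream of its RefSeq starts, at chr4:96077548-96077797 of GRCm38.p6 on the minus strand, carry that core in capitals, with its first base 61 bases before the start. Cyp2j13: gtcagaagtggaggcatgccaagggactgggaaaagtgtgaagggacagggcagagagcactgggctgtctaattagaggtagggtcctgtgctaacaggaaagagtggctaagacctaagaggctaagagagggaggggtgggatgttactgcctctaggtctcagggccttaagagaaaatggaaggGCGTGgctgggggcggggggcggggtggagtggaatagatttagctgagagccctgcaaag
In RefSeq's windows from 250 bases before to 50 after a start, the core was present in 10639 of 32851 promoters of all genes (32.4%). It was present in 8 of 52 windows of members (15.4%), which belong to 7 of 49 members with a window. Among called members with a window it was found in 1 of 7, and the Cyp2s1 window holds none. A match of 5 letters is a description of the sequence and not a binding site.

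Cyp2j5 (ENSMUSG00000052520) and Cyp2j11 (ENSMUSG00000066097), from the same cluster, were lower by less. Cyp2j5 held 1348, 1350, 1421, 1413 and 1307 CPM in the vehicle libraries and 1216, 1339, 982, 819 and 923 CPM at 30 µg/kg. Replicate 2 of 30 µg/kg lay within the vehicle range and the other 4 below it. The log2 fold change was -0.37 ± 0.08 (SE, edgeR adjusted p = 0.000534). Cyp2j11 held 197, 186, 200, 214 and 227 CPM in the vehicle libraries and 174, 196, 133, 115 and 144 CPM at 30 µg/kg, again with only replicate 2 inside the vehicle range. Its log2 fold change was -0.43 ± 0.09 (edgeR adjusted p = 0.000391). The transcripts of Cyp2j13 and Cyp2j5 are identical at 78% of their aligned bases, and no 150-base stretch of either is found in another gene, so reads of this length can be told apart between them.

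The balance within the Cyp2j subfamily differed between libraries. The ratio of Cyp2j13 to Cyp2j5 CPM lay between 0.241 and 0.338 in vehicle and between 0.183 and 0.262 at 10 µg/kg. At 30 µg/kg it was 0.187 and 0.181 in replicates 1 and 2 and 0.0166, 0.0196 and 0.0288 in replicates 3, 4 and 5. The summed CPM of all 8 Cyp2j genes had a median of 2017 (1910 to 2161) in vehicle and 1205 (1016 to 1838) at 30 µg/kg, and these ranges do not overlap. The other 4 tested genes of the cluster were not called at any dose. Cyp2j6, the most abundant of them, held 35.7 to 45.9 CPM in the vehicle libraries and 42.4 to 48.7 CPM at 30 µg/kg, with a log2 fold change of 0.09 ± 0.09. Cyp2j7 had a value of 0.55 ± 0.32 on the same scale (edgeR adjusted p = 0.275) from levels of 1.21 to 2.29 CPM in vehicle. The differences between subfamily members were not tested.

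Cyp2e1 (ENSMUSG00000025479) held 1366, 1217, 1288, 1460 and 1104 CPM in the vehicle libraries. It held 1212, 980, 1105, 938 and 852 CPM at 10 µg/kg and 949, 996, 797, 628 and 436 CPM at 30 µg/kg. All 5 libraries of the highest dose lay below all vehicle libraries, and 3 of those at 10 µg/kg did. This gave a log2 fold change of -0.76 ± 0.16 (SE, edgeR adjusted p = 0.000726) at 30 µg/kg and -0.34 ± 0.16 at 10 µg/kg. Every alternative computed at 30 µg/kg kept this call, with an edgeR or DESeq2 adjusted p of at most 0.0346.

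Cyp2a4 (ENSMUSG00000074254) fell into 2 levels within vehicle. Its 5 vehicle libraries held 93.5, 111, 331, 245 and 284 CPM, the first 2 being the replicates that stood apart. At 10 µg/kg it held 287, 219, 270, 204 and 201 CPM, and at 30 µg/kg 167, 79.0, 39.9, 88.1 and 63.9 CPM. Of the libraries at the highest dose, 4 lay below all vehicle libraries and replicate 1 lay among them. The log2 fold change was -1.28 ± 0.27 (SE, edgeR adjusted p = 0.000907) against vehicle and -1.43 ± 0.27 (adjusted p = 0.00249) against 10 µg/kg. Without both vehicle replicates 1 and 2, an alternative chosen after seeing the data, the value against vehicle was -1.72. At the 5 doses up to 3 µg/kg its log2 fold changes were between 0.42 and 0.58 and none was called.

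Its near-identical paralog was not called. Cyp2a5 (ENSMUSG00000005547) held 164, 107, 81.2, 106 and 113 CPM in the vehicle libraries and 58.7, 88.2, 127, 88.8 and 106 CPM at 30 µg/kg, and its log2 fold change was -0.29 ± 0.23 (SE, edgeR adjusted p = 0.464), a value that neither shows a change nor shows its absence. The transcripts of the pair are identical at 98.3% of 1738 aligned bases. Of the 150-base stretches of Cyp2a4, 4.22% also occur in Cyp2a5, so most but not all reads can be assigned, and values for both carry that uncertainty. The ratio of Cyp2a4 to Cyp2a5 CPM was 0.570, 1.04, 4.08, 2.30 and 2.51 in vehicle. It lay between 1.95 and 6.57 in all 30 libraries from 0.03 to 10 µg/kg, and was 2.84, 0.896, 0.314, 0.993 and 0.603 at 30 µg/kg. Of the 5 vehicle libraries, 4 lay within the range of the highest dose, and the 2 that stood apart were the lowest of the vehicle group. The difference between the paralogs was not tested.

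The promoters of the pair are shown because only Cyp2a4 was called at 30 µg/kg, and the 250 bases before their RefSeq starts are nearly the same. Of 249 aligned bases 245 are identical (98.4%), and the 4 that differ are in capitals. Neither holds GCGTG. The Cyp2a4 window is chr7:26306942-26307191 and the Cyp2a5 window chr7:26835089-26835338, both on the plus strand of GRCm38.p6.
Cyp2a4: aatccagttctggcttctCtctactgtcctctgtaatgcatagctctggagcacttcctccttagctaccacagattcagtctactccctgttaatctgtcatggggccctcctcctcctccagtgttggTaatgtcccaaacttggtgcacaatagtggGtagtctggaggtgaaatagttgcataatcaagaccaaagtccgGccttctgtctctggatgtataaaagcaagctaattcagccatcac
Cyp2a5: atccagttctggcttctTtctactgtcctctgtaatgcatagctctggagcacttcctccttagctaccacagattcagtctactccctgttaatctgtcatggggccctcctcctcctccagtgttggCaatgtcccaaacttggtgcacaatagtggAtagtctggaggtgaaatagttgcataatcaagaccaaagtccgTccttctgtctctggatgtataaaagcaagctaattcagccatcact

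**Figure D3:**
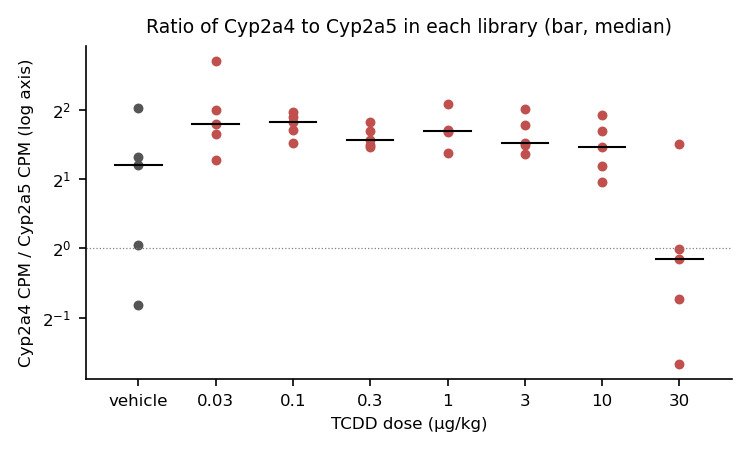
Ratio of Cyp2a4 to Cyp2a5 CPM in each of the 40 libraries, by dose, on a log axis. Points are libraries and bars are group medians. The ratio is 1.95 or higher in every library from 0.03 to 10 µg/kg, while 2 vehicle libraries and 4 libraries at 30 µg/kg lie at 1.04 or below.

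The Cyp2d subfamily held members that moved in opposite directions. Cyp2d9 (ENSMUSG00000068086), which is known as a male-predominant gene, held 102, 97.8, 154, 175 and 208 CPM in the vehicle libraries and 86.9, 67.0, 47.3, 144 and 115 CPM at 30 µg/kg. The low end of the vehicle range came from replicates 1 and 2, and replicates 4 and 5 of the highest dose lay within that range. The log2 fold change was -0.68 ± 0.20 (SE, edgeR adjusted p = 0.0164). Leaving out any 1 of 4 libraries ended the call, namely vehicle replicates 4 and 5 and replicates 2 and 3 of 30 µg/kg, with an adjusted p of up to 0.0771. A pseudogene (Gm46501) and a miRNA gene (Gm27622) overlap 9.26% of its exonic bases.

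Cyp2d22 (ENSMUSG00000061740), often treated as a mouse counterpart of human CYP2D6, held 34.3, 33.2, 22.6, 25.1 and 29.9 CPM in vehicle. It held 32.4, 42.6, 33.9, 37.7 and 38.0 CPM at 10 µg/kg and 29.4, 38.1, 88.2, 77.1 and 61.3 CPM at 30 µg/kg. At the highest dose replicate 1 lay within the vehicle range, replicate 2 just above it and the other 3 well above it. The log2 fold change was 1.02 ± 0.20 (SE, edgeR adjusted p = 0.000409), and 0.67 ± 0.20 (adjusted p = 0.0584) against 10 µg/kg. Replicates 3, 4 and 5, where Cyp2d22 was highest, are the libraries in which Cyp2j13 was lowest.

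Cyp2d26, the most abundant gene of its subfamily, held 389, 388, 221, 243 and 278 CPM in the vehicle libraries and 211, 366, 672, 437 and 323 CPM at 30 µg/kg. The groups overlapped, and the log2 fold change of 0.40 ± 0.18 (SE) was not called (edgeR adjusted p = 0.136). Without both vehicle replicates 1 and 2 it was 0.70 (adjusted p = 0.0160), and without replicate 1 of 30 µg/kg it was 0.57 and called. Against 10 µg/kg, where it held 225 to 273 CPM, the log2 fold change was 0.70 ± 0.18 (adjusted p = 0.0289). That call was lost in 7 of 10 fits that each left out 1 library, and without replicate 3 of 30 µg/kg the value was 0.42 (adjusted p = 0.256). Cyp2d12 was not called, and its 72.8 to 163 CPM at 30 µg/kg enclosed the 89.0 to 153 CPM of vehicle.

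Cyp2s1 (ENSMUSG00000040703) held 20.3, 19.8, 15.8, 19.3 and 21.5 CPM in vehicle. It held 26.3, 22.9, 20.1, 19.8 and 22.7 CPM at 10 µg/kg and 25.8, 29.2, 24.5, 30.0 and 33.3 CPM at 30 µg/kg. All 5 libraries of the highest dose lay above all vehicle libraries. This gave a log2 fold change of 0.56 ± 0.12 (SE, edgeR adjusted p = 0.000453) at 30 µg/kg and 0.21 ± 0.12 at 10 µg/kg, and at the doses up to 3 µg/kg it stayed between -0.15 and 0.03. Every alternative at 30 µg/kg kept the call, with an adjusted p of at most 0.0114. An RNA gene on the opposite strand overlaps 5.27% of its exonic bases.

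**Figure D4:**
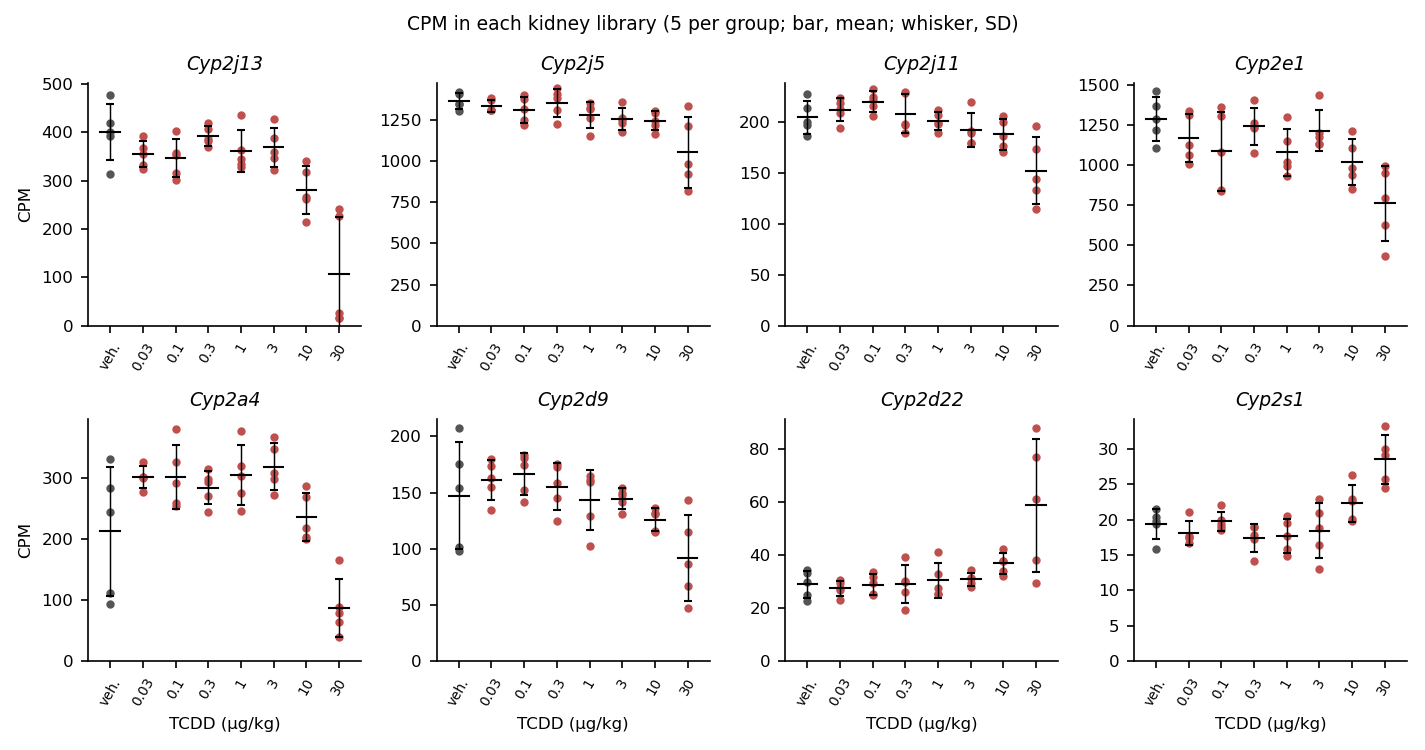
CPM of the 8 members called at 30 µg/kg in each of the 40 libraries, by group (5 libraries each), on linear axes that start at 0. Points are libraries, bars are group means and whiskers are SD. At 30 µg/kg Cyp2j13 falls into 2 levels, 228 to 242 CPM in 2 libraries and 16.1 to 26.6 CPM in 3, while Cyp2s1 lies above all vehicle libraries in all 5.

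The contrast of 30 against 10 µg/kg called 3 of 24 members, or 12.5%, against 2.7% of all genes (1.52% lower and 1.19% higher). These were Cyp2a4 and Cyp2j11 lower (log2 fold change for Cyp2j11 -0.30 ± 0.09, SE, edgeR adjusted p = 0.0455) and Cyp2d26 higher. The count rested on single libraries. It was 1 without replicate 1, 2, 3 or 5 of 10 µg/kg or replicate 3 or 4 of 30 µg/kg, and 7 without replicate 1 or 2 of 30 µg/kg. With only the 10 libraries of these groups it was 0, with 0 of all genes called, and with DESeq2 it was 5. In the fit to all 40 libraries, 10 members had an unadjusted p under 0.05, against 14.6% of all genes.

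Over the dose rank from 0 for vehicle to 7 for 30 µg/kg, 7 of 24 members had a trend, or 29.2%, against 19.8% of all genes (11% rising and 8.84% falling). Cyp2d22 and Cyp2s1 rose, by 0.12 ± 0.02 and 0.07 ± 0.02 (SE) log2 units per rank. Cyp2j11, Cyp2j5, Cyp2e1, Cyp2d9 and Cyp2c69 fell, by between 0.04 and 0.11 log2 units per rank. Cyp2c69 ranged from 0.723 to 1.10 CPM in the vehicle libraries, with 0.420 to 1.07 CPM in those of 30 µg/kg. Its call (edgeR adjusted p = 0.0432) was lost in 16 of 40 fits that each left out 1 library. It was also lost in both stranded columns, at -0.14 (edgeR adjusted p = 0.127) and -0.08 (adjusted p = 0.370) log2 units per rank. Of the 150-base stretches of Cyp2c69, 20.2% also occur in other genes, 15.6% in Cyp2c40. When the 30 µg/kg group was left out, 2 of 24 members had a trend, Cyp2j11 and Cyp2j5, against 8.2% of all 17060 genes tested in that fit, a share near theirs, and the other 5 trends were not called over the 7 groups up to 10 µg/kg.

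**Figure D5:**
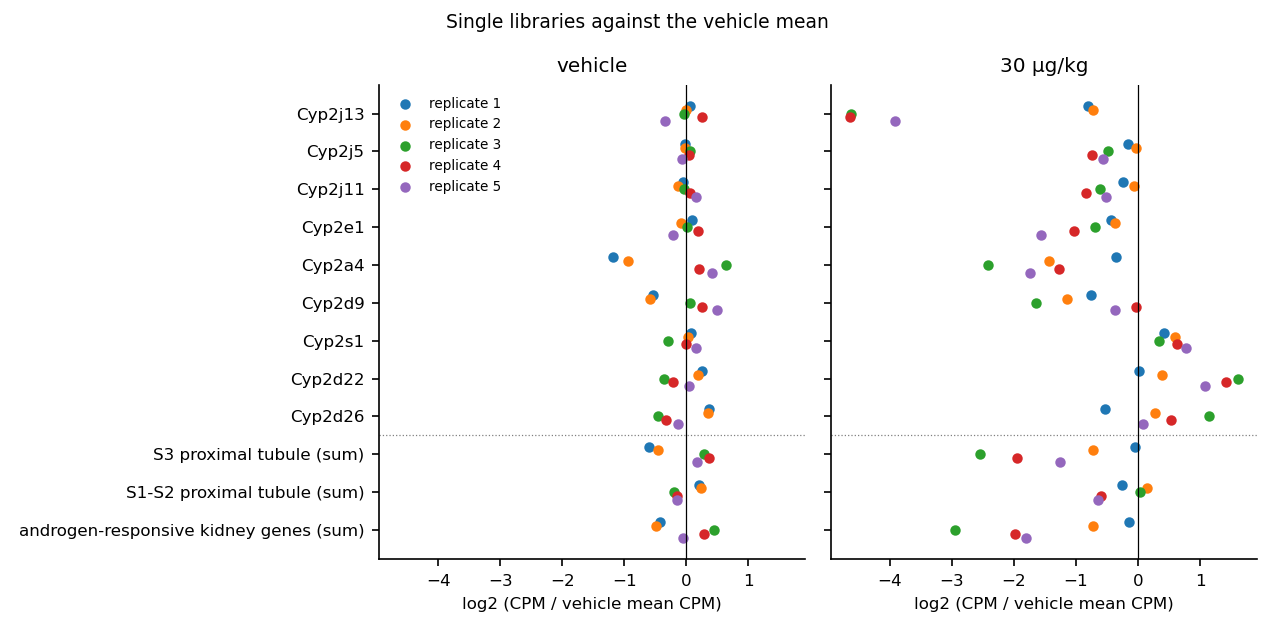
Single libraries of vehicle (left) and 30 µg/kg (right) as log2 of CPM over the vehicle mean CPM, on a common horizontal axis. Rows are 9 members and, below the dotted line, the summed CPM of 5 S3 markers, 9 S1-S2 markers and 6 androgen-responsive genes, and colours mark replicates. Replicate 1 of 30 µg/kg (blue) lies closest to vehicle for Cyp2a4, Cyp2d22 and the S3 and androgen-responsive sums.

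Other measures also differed between the libraries of 30 µg/kg. The 6 androgen-responsive kidney genes on the list (Kap, Slco1a1, Odc1, Cyp7b1, Cyp4b1 and Acsm3) were all called lower at 30 µg/kg, with a median log2 fold change of -1.45. Their summed CPM was 15145, 14591, 27904, 24959 and 19604 in vehicle and 18403, 12318, 2640, 5168 and 5828 at 30 µg/kg, so it was low in the replicates in which Cyp2j13 was lowest. Of 5 S3 markers 3 were called lower and 1, Slc7a12, higher, Slc7a12 being known as a female-predominant transporter gene in mouse kidney. The S3 sum was 2327, 1459, 412, 622 and 1007 at 30 µg/kg. Of 9 S1-S2 markers 3 were called lower and 1 higher. Their sum was 13260, 17441, 16042, 10482 and 10121 at 30 µg/kg. It was lowest in replicates 4 and 5, while replicate 3, also low for Cyp2j13, lay within the vehicle range. The part of these measures in the CYP2 results was not tested, and in bulk tissue fewer cells of a type and less RNA per cell cannot be told apart.

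Markers of other cells also moved. Of 8 macrophage markers 7 were called higher, with a sum of 86.0 to 144 CPM in the vehicle libraries and 179 to 237 CPM at 30 µg/kg. Of 8 endothelial markers 6 and of 5 podocyte markers 3 were called higher. Of 10 tested liver markers 3 were called higher and 1 lower, with sums of 158 to 243 CPM in the vehicle libraries and 176 to 527 CPM at 30 µg/kg. The higher ones were the fibrinogen genes Fga, Fgb and Fgg. Alb, the albumin gene, stood at 7.41 ± 1.05 CPM (SD, n = 5) in the vehicle group, with 4.80 ± 2.71 CPM at 30 µg/kg. Of 9 fat markers 1 was called higher, Ucp1, the uncoupling protein of brown fat (log2 fold change 3.17 ± 0.67, SE, edgeR adjusted p = 0.000962), and 1 lower, the leptin gene Lep. Their sum was 126 to 355 CPM in the vehicle libraries and 242 to 657 CPM at 30 µg/kg. Of 4 tested principal cell markers 3 were called lower, Aqp3, Scnn1b and Scnn1g, with sums of 583 to 833 CPM in vehicle and 422 to 821 CPM at 30 µg/kg. Of 3 distal convoluted tubule markers 1 and of 4 intercalated cell markers 1 were called lower, and of 5 thick ascending limb markers 0 were called. The part of these markers in the CYP2 results was not tested.

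Genes for partners of these enzymes were called at shares near or above the 15.9% of all genes called at 30 µg/kg. Of 6 genes for electron donors and heme-binding partners, 1 was called, Cyb5b, an outer mitochondrial membrane cytochrome b5, with a log2 fold change of -0.30 ± 0.08 (SE, edgeR adjusted p = 0.00593). Por stood at 294 ± 47.6 CPM (SD, n = 5) in the vehicle group, with 260 ± 18.9 CPM at 30 µg/kg (log2 fold change -0.18 ± 0.08, SE, edgeR adjusted p = 0.149). Of 9 tested genes for epoxide hydrolases and arachidonic acid enzymes, 2 were called higher and 1 lower. Ephx2, the soluble epoxide hydrolase that breaks down the epoxides made by Cyp2j enzymes, was lower (log2 fold change -0.32 ± 0.08, edgeR adjusted p = 0.00263). Ptgs1 (0.32 ± 0.10) and Alox15 (2.44 ± 0.79) were higher.

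Of 15 tested genes for regulators of P450 genes, 2 were called higher and 1 lower at 30 µg/kg, near the 15.9% of all genes called. Nr1i2, the pregnane X receptor that induces Cyp3a genes in liver, was higher by 0.67 ± 0.24 log2 units (SE, edgeR adjusted p = 0.0446) from 7.37 ± 3.03 CPM (SD, n = 5) in vehicle, and Cebpb by 1.04 ± 0.26 (adjusted p = 0.00422). Hnf4a, a regulator of tubule and liver genes, was lower at -0.24 ± 0.08 (adjusted p = 0.0243). Nr1i3, the receptor that induces Cyp2b10, was not tested, with at most 0.535 CPM in any library.

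Among members below the filter, Cyp2b10, the classical target of that receptor in liver, had 0, 0, 1, 10 and 2 counts in vehicle and 2, 2, 22, 46 and 16 counts at 30 µg/kg, in the same 3 libraries that were high for Cyp2d22. At all other doses it had at most 11 counts in a library. In a fit that kept every gene with a count, it was not called at 30 µg/kg (edgeR adjusted p = 0.093) but had a trend, of 0.28 log2 units per dose rank (adjusted p = 0.0421). Leaving out 1 library makes the smallest group smaller, and the filter then requires fewer libraries with enough counts. Cyp2b10 passed this looser filter through replicates 3, 4 and 5 of 30 µg/kg and vehicle replicate 4. It was then called in 36 of 40 fits for the trend and in 2 of 10 at 30 µg/kg, those without replicate 1 or 2 of that dose. These calls follow from the filter and from the libraries where the gene was high, so they are no separate support. Cyp2d10 was called at 30 µg/kg in the fit that kept every gene (adjusted p = 0.0201). Cyp2d10 had 0, 2, 0, 0 and 0 counts in vehicle, 8, 11, 5, 7 and 15 at 30 µg/kg and up to 8 in libraries of the lower doses. That fit also called trends for Cyp2g1, which had 3 counts in 1 library of 30 µg/kg and none elsewhere, and for Cyp2c55, with 204 of its 221 counts in vehicle replicate 2. Cyp2d11 had counts in only 1 library of 30 µg/kg, 16 in replicate 5. The remaining named members were not called at any dose. Cyp2r1, a vitamin D 25-hydroxylase, held 0.855 to 2.10 CPM in the vehicle libraries and 0.610 to 2.39 CPM at 30 µg/kg. Cyp2u1, a fatty acid hydroxylase, held 5.27 to 11.7 and 3.87 to 9.54 CPM, and Cyp2b9 held 0 to 0.850 and 0.339 to 1.18 CPM.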

How the data were processed

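Kidney RNA libraries of 40 mice in 8 groups of 5 were analysed from the deposited read counts per gene, whole numbers in the layout of STAR's gene count files with an unstranded column and 2 stranded columns. The submitters' processing notes list FastQC 0.11.7, Trimmomatic 0.39, STAR 2.7.3a and DESeq2, and both the GRCm39 and mm10 builds. Which build and annotation the counts rest on is not given in the sources used here, so the only coordinates printed are those of RefSeq promoter windows. The labels' protocols state total RNA from frozen tissue, a bead-based homogenisation with TRIzol, RNA integrity numbers of at least 7 and reads of 150 bases in pairs.

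The unstranded counts, as the authors deposited them, were used, and the stranded columns served as alternatives. Rows of unassigned reads were not used (per library 1.41 to 2.66% unmapped, 6.98 to 9.70% multimapping, 5.28 to 7.27% without a feature and 5.41 to 5.98% ambiguous). Identifiers were named with GENCODE M21 (52083 of 55359; the rest held 0.663% of counts), which also gave exon lengths, overlaps and 150-base stretches shared with other genes. Promoters are from RefSeq GRCm38.p6, with 49 of 57 members matched. A table of the whole series was not used here.

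Genes passing filterByExpr by group (17345) were scaled by TMM (factors 0.966 to 1.09) and fitted with edgeR 4.0.16 in R 4.3.3, quasi-likelihood with robust estimation, over all 40 libraries and 8 groups, without covariates. Benjamini-Hochberg adjustment ran over all genes tested, and SE is the fold change over the root of F. The biological coefficient of variation was 17.1%. DESeq2 1.42.0 was an alternative. Replicates were numbered in order of deposition and pair no libraries. As an alternative covariate, the libraries were split into a lower and a higher run of the numbers in their titles. Each group has libraries in both runs, and the labels do not say what the runs stand for. No pair of replicates agreed within sampling noise (chi-square per degree of freedom 6.90 to 78.8). A gene at 3 or fewer counts in every library of a group counted as at the floor. Counts carry no molecular identifiers, so precision from depth covers counting error only. The script was tested on simulated data.

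Members are given by name when called at a dose, among the 10 highest in vehicle CPM, among the 5 lowest trend p-values in each direction, or on a fixed list of 14. Members named outside that rule (Cyp2c23, Cyp2c68, Cyp2t4 and untested ones such as Cyp2d10, Cyp2d11, Cyp2g1, Cyp2c55 and those without a read) were named after their values were seen. The members, lists and tests were chosen with earlier results of these data known.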

Additional observations from a re-analysis of the deposited data

Results flagged for a closer look

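Among 26 members examined in the 8 groups, 12 of 204 sets of 5 libraries had a value that stood apart from the other 4 by Dixon's test, where about 10 are expected by chance at 1 in 20. Cyp2c55, an arachidonic acid-metabolising member not tested for lack of counts, was at 10.3 CPM in vehicle replicate 2 and at most 0.0864 CPM in the other vehicle libraries. That library is 1 of the 2 vehicle libraries that stood apart for Cyp2a4 and Cyp2d9. Cyp2c55 was also at 0.197 CPM in replicate 1 of 1 µg/kg and at 0 in the rest of that group.

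In vehicle, Cyp2b10 was highest at 0.658 CPM in replicate 4 (next 0.113), and Cyp2j6 was lowest at 35.7 CPM in replicate 1 (next 43.4). At 30 µg/kg, Cyp2b9 reached 1.18 CPM in replicate 4 (next 0.542), and Cyp2c68 was at 0 in replicate 5 (next 0.561). At 3 µg/kg, Cyp2c23 reached 43.3 CPM in replicate 1 (next 31.5), Cyp2e1 1437 CPM in replicate 4 (next 1197) and Cyp2j11 220.0 CPM in replicate 2 (next 191). Cyp2s1 reached 21.1 CPM in replicate 2 of 0.03 µg/kg (next 17.7), Cyp2t4 1.73 CPM in replicate 1 of 0.3 µg/kg (next 0.618) and Cyp2u1 9.26 CPM in replicate 4 of 10 µg/kg (next 6.88).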

How the results depend on the processing

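At 30 µg/kg, 8 members were called by the test used in the report and 8 or 9 in the alternatives of scaling, filter, strand column, robust estimation, title-number run, DESeq2 and omission of vehicle replicates 1 and 2 (chosen after seeing the data). The exception was the fit to the 10 libraries compared, with 2 calls. That fit called 2 members at 10 µg/kg (0 with all 40 libraries), 0 at 3 µg/kg (1) and 0 for 30 against 10 µg/kg (3). The 3 µg/kg count was also 0 with every gene kept, with either stranded column and without vehicle replicates 1 and 2. For 30 against 10 µg/kg, DESeq2 and the title-number run as a covariate each gave 5. The trend count was 2 without the 30 µg/kg group. Omitting single libraries gave counts of 7 to 10 at 30 µg/kg, 0 to 1 at 3 µg/kg, 1 to 7 for 30 against 10 µg/kg and 6 to 9 for the trend. In the comparison where it was called, no member reversed its direction under any alternative computed. No paired analysis was possible because the labels carry no replicate numbers. At 15278423 counts or more per library, 33 members were below the filter. With every gene kept, 48 members were tested, and of those below the filter Cyp2d10 was called at 30 µg/kg and Cyp2b10, Cyp2g1 and Cyp2c55 had trends.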
